A study of Mus musculus with 288 samples.

Results

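Mt1 and Mt2 encode the metallothioneins made in most mouse tissues, small proteins in which cysteine side chains hold zinc and copper ions. They were taken from the tables by symbol, as 2 of 35904 genes, and both were listed above 0 in all 288 libraries. Male C57BL/6J mice aged 8 weeks breathed room air (normoxia) for 7 days, or intermittent hypoxia (IH), in which oxygen cycled between 21% and 8% during the resting phase. All mice then spent 2 days in constant darkness and room air, so that neither group was hypoxic when the organs were taken. Cerebellum, heart, kidney, liver, lung and skeletal muscle were collected on the second of these days at 8 circadian times 3 hours apart, from 1:30 to 22:30, with 3 libraries per time point. That gives 24 libraries in normoxia and 24 after IH for each tissue. The labels do not record which organs came from the same mouse. The mice carry no transgene, and each library is a whole organ or a piece of it, so more cells of a type and more RNA per cell cannot be told apart.

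Metallothionein transcription is switched on by the metal-responsive factor MTF1, which senses free zinc and binds short metal response elements, and glucocorticoids and inflammatory cytokines raise it as well. In the liver the genes are known for a large induction by fasting, stress and injury. In the brain they are mainly expressed by astrocytes, while the related Mt3 is the neural member of the family and Mt4 is the member of stratified squamous epithelium. The quantity given below is TPM, an abundance per transcript length that adds to about the same total in each library, here between 989211 and 999188.

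The genes lie in a row on the plus strand of mouse chromosome 8 (GRCm38, GENCODE M21), with Mt2 (ENSMUSG00000031762.7) at chr8:94172664-94173568 and Mt1 (ENSMUSG00000031765.8) at chr8:94179082-94180327. Their starts are 6418 bases apart, and Mt3 at chr8:94152607-94154146 and Mt4 at chr8:94137197-94139031 come before them. The coding sequences are printed because the members are told apart by them and because they show the metal-binding residues. Both have 3 coding exons and 186 bases, Mt1-201 between 94179311 and 94180193 and Mt2-201 between 94172848 and 94173427. Capitals mark the codons for cysteine.
Mt1: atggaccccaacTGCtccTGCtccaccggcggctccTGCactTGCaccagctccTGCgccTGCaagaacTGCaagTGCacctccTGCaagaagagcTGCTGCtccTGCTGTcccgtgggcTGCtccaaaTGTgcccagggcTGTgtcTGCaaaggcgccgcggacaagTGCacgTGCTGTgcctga
Mt2: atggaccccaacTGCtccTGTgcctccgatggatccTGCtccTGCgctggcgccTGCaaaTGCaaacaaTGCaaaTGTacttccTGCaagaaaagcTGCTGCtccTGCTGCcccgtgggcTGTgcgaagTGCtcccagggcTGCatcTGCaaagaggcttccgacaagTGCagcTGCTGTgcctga
In each gene 20 of 61 codons are cysteine codons, 32.8%, and all 20 stand at the same place in both. The sequences are identical at 148 of 186 bases, 79.6%, with a longest identical run of 20 bases. The annotated transcripts of Mt1 and Mt2 share 0 stretches of 31 bases, the length of the words by which kallisto assigns reads by default. Mt2 shares 3 such stretches with Pip5k1a, and Mt1 shares 0 with any other gene of the annotation.

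Sequence before the start of each gene is printed because the members varied together in most tissues and because metal response elements lie there. The windows searched hold 250 bases before and 50 after the start used by the promoter table made from RefSeq (GRCm38.p6, plus strand), chr8:94178839-94179138 for Mt1 and chr8:94172368-94172667 for Mt2. For Mt2 that start, 94172618, is also where the RefSeq gene begins, and the 250 bases before it, chr8:94172368-94172617, lie outside the transcribed part. For Mt1 the start is 94179089, while the RefSeq gene with all its transcripts begins at 94178883, so 206 of the 250 bases lie inside it, and the stretch printed is the 30 bases before the GENCODE gene, chr8:94179052-94179081. Capitals mark matches to TGCACNC or TGCGCNC, the letters used here for the core of the element, on either strand.
Mt1: gggcggtcccgctgTGCACACtggcgctcc
Mt2: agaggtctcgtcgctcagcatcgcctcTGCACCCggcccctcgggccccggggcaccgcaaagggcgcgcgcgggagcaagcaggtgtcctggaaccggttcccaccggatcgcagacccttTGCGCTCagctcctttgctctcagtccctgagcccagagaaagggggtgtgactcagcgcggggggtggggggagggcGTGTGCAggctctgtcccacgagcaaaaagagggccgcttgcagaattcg
In the whole windows Mt1 held 3 matches, at 23 bases before the start and 3 and 21 bases after it. Mt2 held 4, at 223, 128 and 50 bases before and 5 bases after the start. Other annotated transcripts start beyond the windows, Mt1-203 at 94179211, Mt1-202 at 94179241 and Mt2-202 at 94172860. All matches lie before those starts, and the windows do not reach them. Of 32851 such windows of 300 bases in the genome, 25.7% held at least 1 match, 1.97% at least 3 and 0.517% at least 4, and Mt3 and Mt4 held 1 each. The core of the hypoxia response element, ACGTG, was found 1 time in Mt1 and 0 times in Mt2, against 19.6% of all windows. The antioxidant element TGACNNNGC was found 0 times in Mt1 and 1 time in Mt2, against 12.4% of windows. The E-box CACGTG was in neither, against 7.15%, and neither was the glucocorticoid receptor hexamer TGTTCT, against 19%. These matches describe letters, and an absent match says only that the letters are not in the window.

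Each tissue expressed its own defining markers, with summed levels in normoxia from a median of 4977 TPM for 8 genes in the cerebellum to 171375 TPM for 8 genes in the lung. Markers of other organs were present in normoxia too. Normoxic cerebellum libraries had 2084 to 14878 TPM of 8 muscle markers (median 3444) and 107 to 6068 TPM of 8 liver markers (median 3059). The highest normoxic heart library had 2005 TPM of 8 lung markers, against a median of 2.21 TPM. Some libraries stood apart and bear on the values below. The liver library after IH at 13:30, replicate 2, had 1802 TPM of 8 liver markers against 46154 to 88008 TPM in the other 23 libraries, and 6869 TPM of 8 heart markers against 27.1 to 55.1 TPM. The cerebellum library after IH at 1:30, replicate 3, had 445 TPM of cerebellar markers against 1537 to 7664 TPM. Its heart markers were at 8061 TPM, against 84.5 to 4783 TPM in the other cerebellum libraries after IH. The lung library after IH at 1:30, replicate 2, had 34973 TPM of lung markers against 44273 to 205904 TPM. The mean number of genes above 0 TPM was 22694 in the lung in normoxia and 25455 after IH, and in the heart 25124 and 21447. In the heart the groups did not overlap, with 22988 to 28331 genes in normoxia and 20316 to 22793 after IH. In the lung they overlapped in part (21746 to 25400 and 23622 to 28284). A fit with this number as a term therefore cannot separate it from treatment in the heart, and can only in part in the lung. Several results below are given with and without the libraries that stood apart.

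Mt1 was most abundant in the cerebellum by a wide margin. In normoxia the cerebellum had 2014 ± 391 TPM, the heart 265 ± 61.6, the kidney 167 ± 41.4, the lung 155 ± 32.0, the muscle 105 ± 29.2 and the liver 92.6 ± 158 TPM (SD, n = 24 each). The lowest, median and highest values were 1459, 1927 and 3031 TPM in the cerebellum, and 16.6, 53.8 and 796 TPM in the liver. No other tissue of either treatment reached the lowest normoxic cerebellum library. The heart ran from 148 to 402 TPM, the kidney from 101 to 276, the lung from 120 to 254 and the muscle from 49.8 to 157 TPM, so these tissues overlap. The kidney and the lung did not differ beyond their spread (log2 difference of levels 0.09 ± 0.18 SE, limma adjusted p = 0.64), while the other 4 neighbours in the order did, from the cerebellum over the heart (2.94 ± 0.18) to the lung over the muscle (0.60 ± 0.18, adjusted p = 0.00127). Of all tests between these neighbours over all genes, 83.4% passed.

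Mt2 was also most abundant in the cerebellum, but the rest of the order differed. In normoxia the cerebellum had 923 ± 394 TPM, the lung 57.5 ± 20.9, the kidney 52.3 ± 19.6, the muscle 34.1 ± 10.3, the liver 32.3 ± 73.5 and the heart 31.7 ± 13.7 TPM (SD, n = 24 each). The cerebellum ran from 161 to 1722 TPM with a median of 882, and the heart from 13.9 to 67.1 TPM with a median of 28.2. The liver ran from 3.10 to 362 TPM with a median of 10.4, so that its mean lies well above its median. The lung and the kidney did not differ beyond their spread (0.15 ± 0.23 on the log2 scale, limma adjusted p = 0.55). The liver and the heart have nearly the same mean TPM, but on the log2 scale the liver was lower by 1.13 ± 0.23 (adjusted p = 6.73e-06). Of the neighbour tests over all genes in this order, 81.3% passed.

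**Figure D1:**
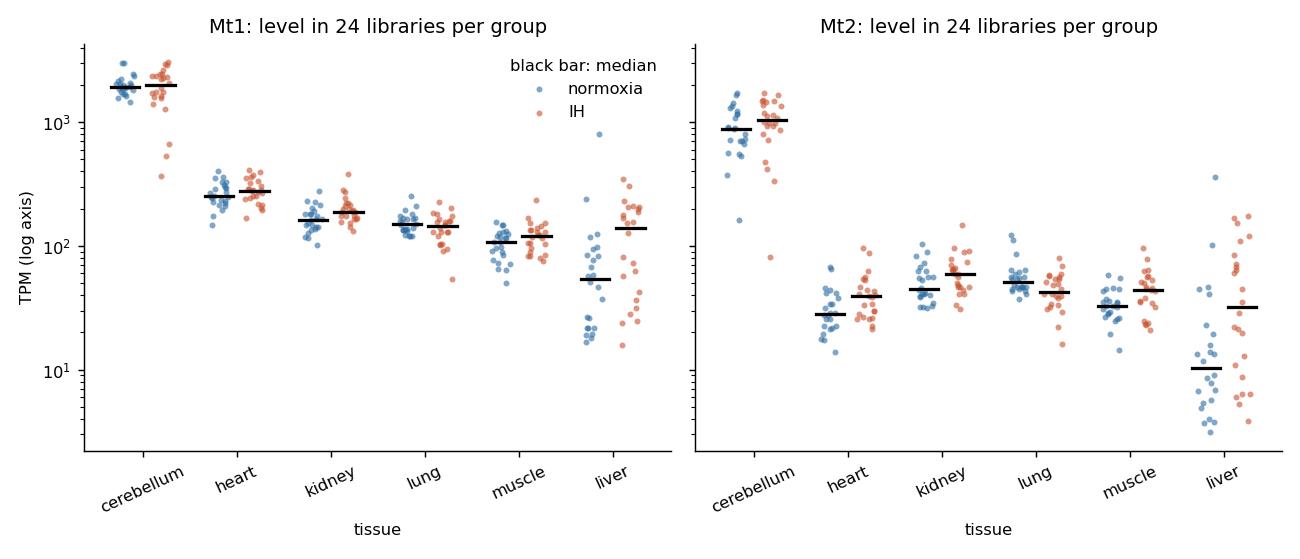
TPM of Mt1 (left) and Mt2 (right) on a log axis in each of 6 tissues, with a point per library, normoxia in blue and IH in orange, 24 libraries per group, and the median as a black bar. The cerebellum has the highest medians for both genes, 1927 TPM of Mt1 and 882 TPM of Mt2 in normoxia, and the liver has the widest spread, from 3.10 to 362 TPM of Mt2 in normoxia.

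Of the other metallothioneins, Mt3 was more abundant in the cerebellum than either member, at 2430 ± 504 TPM in normoxia and 2732 ± 823 TPM after IH, and its group means were at most 12.9 TPM elsewhere. Mt4 had a median of 0 TPM in every group. Mt3 did not pass the test of IH against normoxia in the 5 tissues where it was tested (for example 0.12 ± 0.16 in the cerebellum, limma adjusted p = 0.66).

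Liver levels varied more between libraries than those of the other 5 tissues. The highest liver library of Mt1 held 47.8 times the lowest in normoxia and 21.8 times after IH, and for Mt2 the ratios were 117 and 45.8. In the other tissues the highest library held between 2.08 and 8.27 times the lowest for Mt1, and between 3.25 and 21.1 times for Mt2, with the cerebellum at 10.7 times in normoxia and 21.1 times after IH. The 8.27 and 21.1 rest on the cerebellum library after IH with few cerebellar markers, at 367 TPM of Mt1 and 81.1 TPM of Mt2. The next lowest there were 533 and 335 TPM, and the highest 3036 and 1713 TPM. The coefficient of variation of Mt2 in normoxia was 2.28 in the liver and at most 0.432 in the other tissues. At 22:30 after IH the 3 liver libraries had 6.32, 6.39 and 153 TPM of Mt2, and at 19:30 they had 109, 119 and 5.23 TPM. At both times libraries near the floor of the tissue stand beside libraries more than 10 times higher. In normoxia the liver libraries at 7:30 had 66.9, 83.8 and 796 TPM of Mt1.

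After IH, both genes were higher in the liver. Mt1 was at 131 ± 94.6 TPM after IH (lowest, median and highest 15.9, 140 and 347) against 92.6 ± 158 in normoxia. Mt2 was at 54.3 ± 54.4 TPM (3.83, 31.8 and 175) against 32.3 ± 73.5. The groups overlap over nearly their whole range. For Mt1 17 of 24 libraries after IH lay above the normoxia median, and for Mt2 18 of 24. Above 5 times the normoxia median lay 10 libraries after IH and 2 in normoxia for Mt2, but 2 and 1 for Mt1. The change of mean 24-hour expression was 1.29 ± 0.45 (log2, SE) for Mt2, which passed both thresholds used by the study, 0.05 for the adjusted p and 1.5-fold for the size (limma adjusted p = 0.0306). For Mt1 it was 0.95 ± 0.37 and missed the first (limma adjusted p = 0.0549), though with time point as a term the same change passed (adjusted p = 0.0109). Of 11334 genes tested in the liver, 24.2% passed the adjusted p and 3.65% both thresholds, and 0.900% and 0.468% had a larger absolute change than Mt1 and Mt2.

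The liver value moves with single libraries. The highest of all, normoxia at 7:30, replicate 3, with 796 TPM of Mt1 and 362 TPM of Mt2, belongs to the lower group. Without it the changes were 1.10 ± 0.35 for Mt1 and 1.48 ± 0.42 for Mt2, and both passed (limma adjusted p = 0.0158 and 0.00772). It was left out because of these same values, so a larger change had to follow, and these calls add no evidence. Without the library of low liver markers they were 0.92 ± 0.38 and 1.31 ± 0.46 (adjusted p = 0.0587 and 0.0264). Libraries numbered 1, 2 and 3 taken separately gave 0.82, 0.91 and 1.07 for Mt1 and 1.33, 1.23 and 1.28 for Mt2, none past the threshold with 8 libraries a group. Leaving out number 1, 2 or 3 gave 1.26, 1.32 and 1.28 for Mt2, past the threshold in the last case (adjusted p = 0.256, 0.207 and 0.035). With TPM as deposited, where the median of all genes fell by 0.12, Mt2 changed by 1.16 and missed the threshold (adjusted p = 0.0617), while its change relative to that median was 1.28, against 1.30 in the scaled values.

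Markers of other organs moved with treatment in the liver. All 5 tested kidney markers were higher after IH, with a summed level of 43.9 to 468 TPM (median 93.6) against 0.970 to 127 TPM (median 4.25) in normoxia, while kidney libraries had medians of 57110 and 50941 TPM. Of 7 blood markers 6 were higher and 1 lower, of 7 heart markers 6 were higher, and of 8 liver markers 3 were lower. Genes entered by their mean over both treatments, so a marker low in normoxia could be tested through libraries after IH alone. The counts include the library of low liver markers and were not repeated without it. Without it the median sums after IH were 91.2 TPM for kidney, 38.4 for heart, 4232 for blood and 67271 for liver markers. In normoxia they were 4.25, 14.6, 2743 and 85333 TPM. The part of these markers in the change of Mt1 and Mt2 was not tested. The normoxic library with 796 TPM of Mt1 had 112 TPM of kidney markers and 77555 TPM of liver markers.

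In the lung both members were lower after IH. Mt1 had 155 ± 32.0 TPM in normoxia (120, 149 and 254 as lowest, median and highest) and 141 ± 39.1 TPM after IH (53.5, 143 and 227). Mt2 had 57.5 ± 20.9 TPM (37.5, 51.2 and 122) and 44.8 ± 14.7 TPM (16.0, 42.6 and 79.5). The ranges overlap, with 10 of 24 libraries after IH above the normoxia median of Mt1 and 8 of 24 above that of Mt2. In the values scaled by the median of ratios, the change was -0.48 ± 0.12 for Mt1 (limma adjusted p = 0.000425) and -0.67 ± 0.14 for Mt2 (adjusted p = 4.9e-05), and Mt2 also passed the 1.5-fold threshold. The lung is the tissue in which most genes moved, since 70.4% of 15426 genes passed the adjusted p, 41.5% were lower and 4.39% lower by 1.5-fold too, and 22.1% and 9.57% of genes had a larger absolute change than Mt1 and Mt2.

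The size of the lung change depends on the scale, and so does the share of lower genes, which was 10.7% with TPM as deposited (0.376% past 1.5-fold too) against 55% higher. The median change of all lung genes was -0.08 in the scaled values and 0.21 in TPM as deposited, a shift of 0.28. With TPM as deposited Mt1 changed by -0.17 (limma adjusted p = 0.135) and Mt2 by -0.37 (adjusted p = 0.0115). Relative to the median gene the changes were -0.40 and -0.38 for Mt1 and -0.60 and -0.58 for Mt2 on the 2 scales. With the number of detected genes as a term they were -0.01 and -0.16 (adjusted p = 0.955 and 0.522). That number differed with treatment in the lung, so the term may take up part of any treatment change. Without the library of fewest lung markers the changes were -0.41 and -0.60. All 8 lung markers were lower after IH too, with a median change of -0.72, as were 5 of 7 blood markers, and 6 of 8 heart markers were higher. The part of these in the change of Mt1 and Mt2 was not tested.

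In the kidney Mt1 rose from 167 ± 41.4 TPM (101, 163 and 276) to 200.1 ± 53.1 TPM (132, 189 and 379), with 20 of 24 libraries after IH above the normoxia median. The change was 0.30 ± 0.10 (limma adjusted p = 0.0272), below 1.5-fold, where 19.8% of 12902 genes passed the adjusted p and 0.783% both thresholds. Mt2 had 52.3 ± 19.6 TPM and 62.7 ± 25.1 TPM, with a change of 0.29 ± 0.14 that missed the threshold (adjusted p = 0.144), though it passed with time point as a term (adjusted p = 0.0134). Libraries numbered 3 gave -0.03 for Mt1 and -0.13 for Mt2, against 0.48 and 0.57 for those numbered 1 and 0.44 and 0.43 for those numbered 2, and without numbers 1 or 2 the Mt1 change was 0.21 and 0.23 and did not pass. Markers of blood (5 of 7) and adipose tissue (4 of 6) were higher after IH in the kidney, the latter 0 of 6 with TPM as deposited, and their part was not tested.

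Heart, muscle and cerebellum gave no change of mean expression past the threshold. In the heart Mt1 had 265 ± 61.6 TPM and 283 ± 64.0 TPM (-0.02 ± 0.13 in the scaled values, limma adjusted p = 0.89), and its sign turned with TPM as deposited (0.10). Mt2 in the heart had 31.7 ± 13.7 TPM and 41.8 ± 18.9 TPM, with 18 of 24 libraries after IH above the normoxia median, and changed by 0.27 ± 0.17 (adjusted p = 0.203). With TPM as deposited that became 0.39 (adjusted p = 0.0415), and with the number of detected genes as a term 0.94 ± 0.29 (adjusted p = 0.0684). In the heart that number did not overlap between treatments, so the latter value cannot be read as a separate treatment effect. In muscle the changes were 0.12 ± 0.11 for Mt1 and 0.26 ± 0.14 for Mt2, and in the cerebellum -0.18 ± 0.16 and 0.14 ± 0.23. The adjusted p was passed by 45.2% of genes in the heart, 10.4% in muscle and 15% in the cerebellum, and both thresholds by 2.95%, 0.374% and 2.64%. In the cerebellum, 7 of 7 markers of astrocytes and Bergmann glia were tested and 0 passed.

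**Figure D2:**
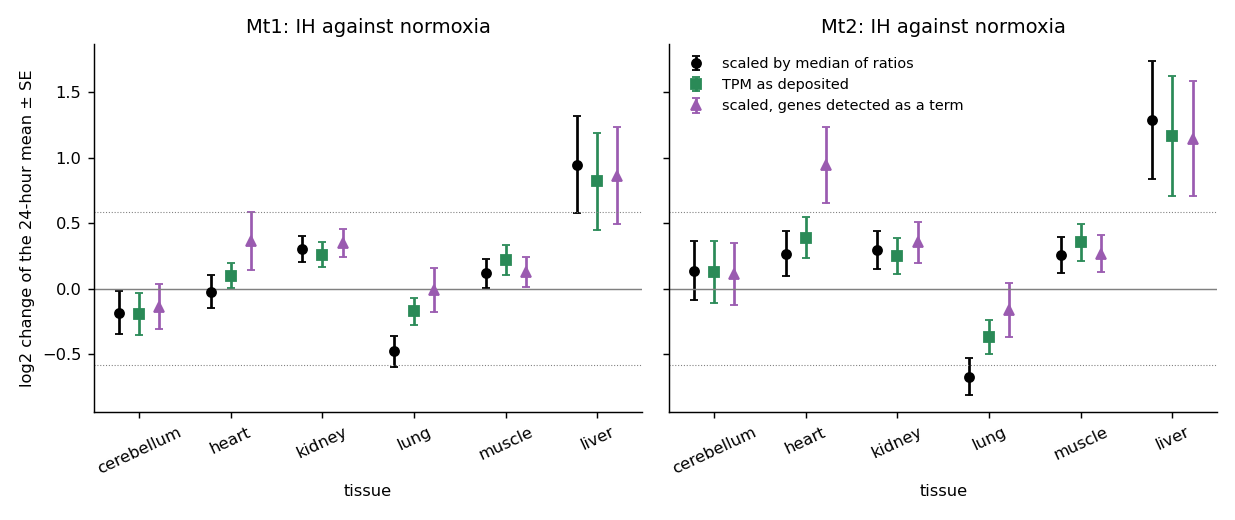
Log2 change of mean 24-hour expression after IH against normoxia for Mt1 (left) and Mt2 (right) in 6 tissues, with SE as bars (24 libraries per treatment). Circles are scaled values, squares TPM as deposited and triangles scaled values with the number of detected genes as a term, and dotted lines mark 1.5-fold. The liver points are above 0 and the lung points below 0 in all 3, with lung values between -0.67 and -0.01. The SE bars of the lung triangles cross 0 (-0.01 ± 0.17 for Mt1 and -0.16 ± 0.21 for Mt2).

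The change differed between some tissues, as it did for many genes, and the lung was on one side of most differences. Among the 15 pairs of tissues, an interaction of treatment with tissue passed for 5 pairs in Mt1 and 5 in Mt2, where 38.7% of all tests over all genes and pairs passed. Every pair that passed held the lung except cerebellum and liver in Mt1, and 60% of all tests of the lung against another tissue passed. The liver and lung changes differed by 1.54 ± 0.40 for Mt1 and 2.08 ± 0.49 for Mt2 (limma adjusted p = 0.00069 and 0.000183), where 56.2% of genes differed. The comparisons with the lung share its libraries, and libraries of 2 tissues were taken as independent. With TPM as deposited 3 pairs passed in Mt1 and 4 in Mt2, and without the highest liver library 7 and 9. That library was left out for its level of the genes tested, so the larger counts add no evidence.

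Taken by time point, the lung was below normoxia at all 8 times for both genes and the liver above it at 7 of 8, in the scaled values. In the lung Mt1 differences ran from -0.97 at 1:30 to -0.11 at 19:30, and Mt2 differences from -1.13 at 7:30 to -0.25 at 19:30. In the liver Mt2 differences ran from -0.26 at 4:30 to 2.83 at 10:30. At 10:30 the liver libraries had 84.3, 168 and 175 TPM of Mt2 after IH and 6.82, 13.4 and 101 TPM in normoxia, which overlap, and the adjusted p was 0.957, where 0% of genes passed. Of 48 tests over tissues and times, 2 passed for Mt1 and 1 for Mt2, against 2.45% of tests over all genes.

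Those 3 were in the cerebellum and the lung. Mt1 in the cerebellum at 1:30 had 1701, 2462 and 1558 TPM in normoxia and 664, 1267 and 367 TPM after IH, without overlap (-1.35 ± 0.40, limma adjusted p = 0.0329), where 8.29% of genes passed. Without the library of few cerebellar markers, which is the lowest of the 3, it was -1.32 ± 0.46 and missed the threshold (adjusted p = 0.1). Mt1 in the lung at 1:30 had 136, 180.2 and 133 TPM in normoxia and 154, 53.5 and 128 TPM after IH (-0.97, adjusted p = 0.0417), where 21.4% passed, and without the library of few lung markers -0.42 (adjusted p = 0.523). Mt2 in the lung at 7:30 had 64.2, 86.6 and 56.0 TPM against 32.0, 29.4 and 57.6 TPM (-1.13, adjusted p = 0.037), which overlap, and where 28.3% passed. In muscle Mt1 at 16:30 had 120, 64.2 and 95.6 TPM in normoxia and 141, 233 and 129 TPM after IH, without overlap, and its difference of 0.75 ± 0.27 missed the threshold (adjusted p = 0.113), where 1.61% passed. The interaction of treatment and time passed in 0 of 6 tissues for either gene, with unadjusted p from 0.162 to 0.783, and in 0.00125% of tests over all genes.

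A 24-hour rhythm was tested with a rank test against cosine curves and a cosine fit. It passed for both genes in the kidney in normoxia and in no other of the 12 sets of tissue and treatment. Kidney Mt1 had a MESOR (the mean level of the fitted curve) of 167 TPM, an amplitude of 42.0 TPM and an acrophase (the time of its peak) of 7.32 h (adjusted p = 0.0226). Kidney Mt2 had 52.3 TPM, 21.2 TPM and 6.39 h (adjusted p = 0.00894). In kidney normoxia 5.17% of 14706 genes passed, and over all sets 2.14%. The times of highest and lowest mean, picked from these same values, were 7:30 and 16:30 for both genes. The libraries at 7:30 had 213, 226 and 276 TPM of Mt1, and those at 16:30 had 118, 127 and 141 TPM. For Mt2 they had 72.4, 89.6 and 104 TPM at 7:30 and 31.9, 32.5 and 34.6 TPM at 16:30. With any 1 replicate number left out, the rhythm passed in 0 sets for either gene, while the rank test alone passed 3 sets for Mt1 and 2 for Mt2, and Fisher's combination of both tests 7 and 5.

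After IH the kidney rhythm missed the threshold in both genes, but Mt1 passed with scaled TPM (adjusted p = 0.0285) and both passed with Fisher's combination (adjusted p = 0.0485 and 0.0067). The fitted amplitudes were 42.5 and 22.4 TPM and the acrophases 5.79 and 6.17 h for Mt1 and Mt2 (adjusted p = 0.552 and 0.258), where 1.03% of genes passed. The amplitude differed between treatments by 0.58 ± 15.6 TPM for Mt1 and 1.29 ± 6.87 TPM for Mt2 (SE), and the acrophase by -1.53 ± 1.41 h and -0.23 ± 1.20 h, none past the threshold (adjusted p from 0.934 to 0.995), where 0% and 0.248% of 805 rhythmic genes passed. The MESOR of Mt1 was 32.9 ± 11.1 TPM higher after IH (adjusted p = 0.0461) and that of Mt2 10.4 ± 4.86 TPM higher (adjusted p = 0.168), where 10.6% passed. With any 1 replicate number left out, the MESOR difference of Mt1 was 17.4 to 41.9 TPM and missed the threshold. The rhythm thus passed in normoxia and missed after IH, while a difference in amplitude or timing did not pass.

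In the other tissues the fitted peaks stand without a passed test. In the heart the fitted peak in normoxia was at 13.1 h for Mt1 and 10.4 h for Mt2 (adjusted p = 0.0629 each), and at 14.7 and 11.4 h after IH. Heart Mt2 at 10:30 had 33.6, 43.8 and 65.2 TPM in normoxia and 62.6, 95.3 and 86.8 TPM after IH, the highest time point in both treatments. Mt1 in the normoxic liver peaked at 8.34 h with an adjusted p of 0.0625. In the normoxic cerebellum the fitted peak was at 15.6 h for Mt1 and 14.8 h for Mt2 (adjusted p = 0.79 and 0.208).

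**Figure D3:**
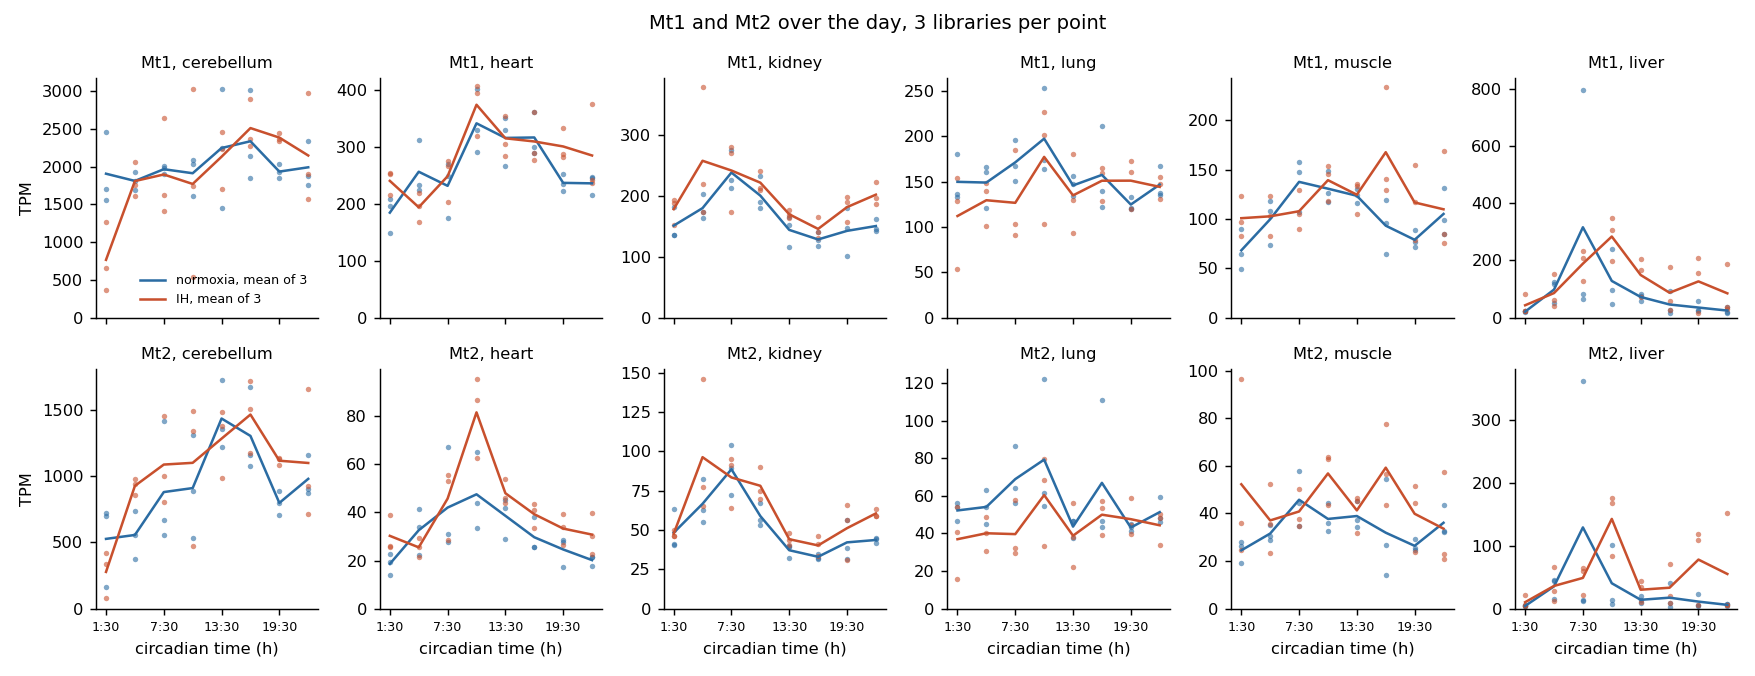
TPM of Mt1 (top) and Mt2 (bottom) against circadian time in hours for each tissue, with a point per library and lines through the mean of 3 libraries, normoxia in blue and IH in orange, each axis starting at 0. The kidney is highest near 7:30 and lowest at 16:30 in normoxia, and the liver at 7:30 in normoxia rests on a library of 796 TPM of Mt1.

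The ratio of Mt1 to Mt2 within a library does not depend on how libraries are scaled. The geometric mean ratio in normoxia was 8.80 in the heart, 4.09 in the liver, 3.30 in the kidney, 3.08 in muscle, 2.78 in the lung and 2.39 in the cerebellum, so the heart stood apart. After IH the ratio rose in the lung to 3.20, a log2 difference of 0.20 ± 0.05 (permutation within time points, adjusted p = 0.0003 over 6 tissues), and was lower than in the normoxia library of the same time and number in 3 of 24 cases. In the heart it fell to 7.18, a difference of -0.29 ± 0.11 (permutation, adjusted p = 0.00096), lower in 18 of 24 cases. The liver fell to 3.15 (-0.38 ± 0.19, 17 of 24) and the cerebellum to 1.92 (-0.32 ± 0.16, 16 of 24), both with a permutation adjusted p of 0.0471. The counts of 24 match libraries of different mice by number and are a description only. The liver missed the threshold with medians in place of means (-0.41, permutation adjusted p = 0.146), without libraries numbered 1 (-0.30, adjusted p = 0.37) and without those numbered 2 (-0.39, adjusted p = 0.123). Kidney and muscle changed by 0.01 ± 0.07 and -0.14 ± 0.08 and did not pass (permutation, adjusted p = 0.911 and 0.129).

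These differences show unequal change of the members and not which of them moved. Without the liver and cerebellum libraries of few markers, those tissues gave -0.42 and -0.37 (permutation, adjusted p = 0.0253 and 0.0159). In the cerebellum the normoxia ratios ran more widely than after IH, with an SD of 0.70 against 0.39 on the log2 scale. There the difference rests on libraries numbered 1, since it was -0.04 without them, while it was -0.32 without number 2, also not past the threshold, and -0.61 without number 3. In the liver it was -0.30 and -0.39 without numbers 1 and 2, and did not pass either.

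**Figure D4:**
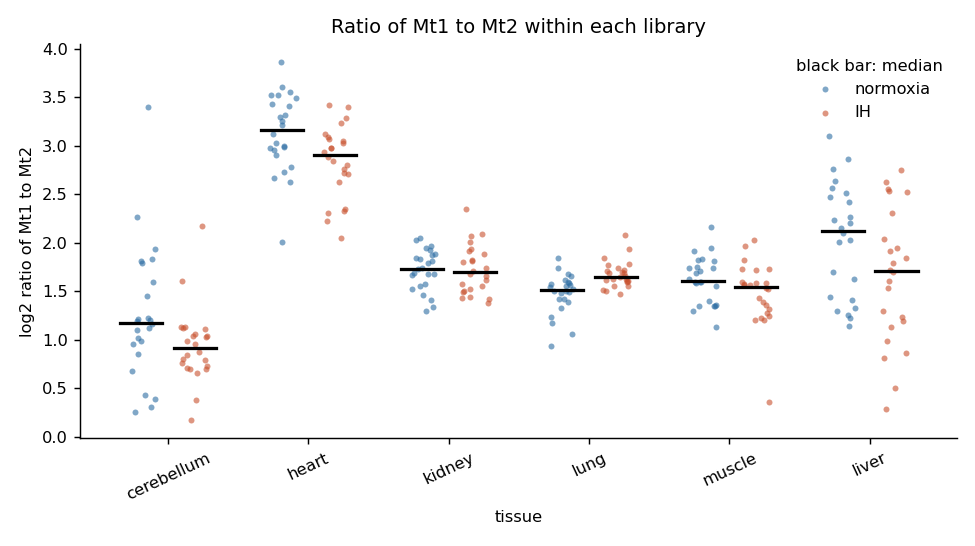
Log2 ratio of Mt1 to Mt2 TPM within each library, by tissue and treatment, with a point per library (24 per group) and the median as a black bar. The heart has the highest ratios, and lung ratios were higher after IH, 3.20 against 2.78 as geometric means.

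Mt1 and Mt2 varied together from library to library. Pearson's r of their log2 levels over 24 libraries was between 0.721 and 0.970 in 11 of the 12 groups, as a description of libraries that share depth and dissection. The exception was the cerebellum in normoxia, at 0.352, and at 0.152 once time point means were subtracted. After IH the cerebellum had 0.923 and 0.896. These values include the library of few cerebellar markers, the lowest there in both genes, and were not computed without it. In normoxia at 1:30 its libraries had 1701, 2462 and 1558 TPM of Mt1 with 161, 699 and 718 TPM of Mt2, so that the library lowest in Mt2 was not the lowest in Mt1.

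Libraries of different organs that carry the same treatment, time and replicate number also deviated together, above all between liver and heart. The deviation is the mean log2 level of both genes minus the mean of the same tissue, treatment and time. Pearson's r over 48 labels was 0.625 between heart and liver, 0.502 between liver and muscle, 0.439 between heart and muscle and 0.406 between heart and kidney, and ran from -0.08 to 0.402 for the other pairs. The liver library of 796 TPM is an example. Under the same label, normoxia at 7:30, replicate 3, stood the highest normoxic kidney and muscle libraries by the mean of both genes and the 2nd highest heart library, among 24 each, while the cerebellum ranked 5th and the lung 9th. These ranks run over all times, and 7:30 had the highest normoxic means of both genes in kidney and muscle. The deviations were 2.73 in the liver, 0.52 in the heart, 0.38 in the cerebellum, 0.25 in muscle, 0.23 in the kidney and -0.15 in the lung. Larger normoxic deviations were found in the kidney (0.41 at 19:30, replicate 3) and in muscle (0.69 at 16:30, replicate 1). Whether organs under the same label came from the same mouse is not recorded.

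**Figure D5:**
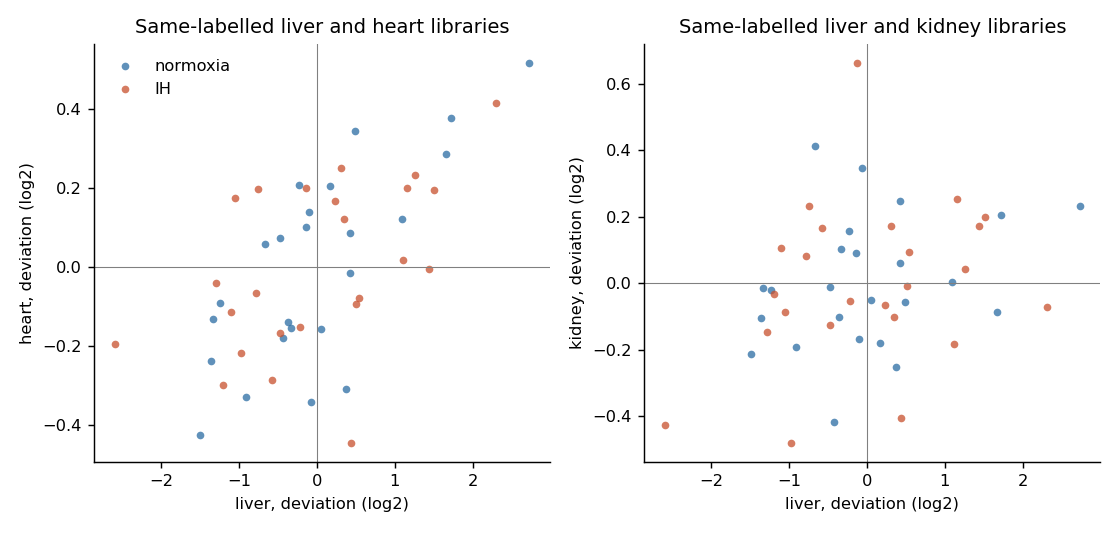
Deviation of the mean log2 level of Mt1 and Mt2 from the mean of its tissue, treatment and time, liver on the horizontal axis against heart (left) and kidney (right), with a point for each of 48 same-labelled libraries. Liver and heart rise together (r = 0.625), liver and kidney less so (r = 0.285).

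Over all genes, the shares that passed the adjusted p as higher and as lower were 9.76% and 5.24% in the cerebellum, 28% and 17.3% in the heart, 8.25% and 11.5% in the kidney, 10.9% and 13.3% in the liver, 28.9% and 41.5% in the lung and 5.48% and 4.89% in muscle. Taken from TPM as deposited they were 4.14% and 2.14%, 37.5% and 6.39%, 2.03% and 5.79%, 3.6% and 18.2%, 55% and 10.7%, and 14.5% and 0.632% in the same order. With the number of detected genes as a term the heart had 0.884% and 1.13% and the lung 27.4% and 25.1%. List counts below are from the scaled values and stand against the first shares, with the other settings named where they turn them.

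Mtf1, the zinc-sensing activator, was measured at means of 4.12 to 10.3 TPM. It was higher after IH in the liver (0.22 ± 0.08, limma adjusted p = 0.0291) and the cerebellum (0.17 ± 0.06, adjusted p = 0.0314) and did not pass elsewhere. Neither call held with TPM as deposited (0.10 and 0.16, adjusted p = 0.428 and 0.179), and Mtf1 was higher in the lung (0.22, adjusted p = 0.000125). Slc30a1, which exports zinc and is a classical MTF1 target, was higher in the heart (0.34 ± 0.06, adjusted p = 1.8e-05) and lower in the lung (-0.29 ± 0.09, adjusted p = 0.00308). The lung value was 0.0083 with TPM as deposited (adjusted p = 0.939) and 0.29 with the number of detected genes as a term (adjusted p = 0.00462), and that term left the heart at 0.06 (adjusted p = 0.76). In the liver Slc30a1 had -0.18 ± 0.15 (adjusted p = 0.371), and -0.29 with that term (adjusted p = 0.0385).

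The zinc transporter list of 24 genes moved in both directions. In the lung 4 of 19 tested members were higher and 9 lower, with a median of -0.12 against -0.08 over all genes, and the importers Slc39a2 (0.86 ± 0.13) and Slc39a14 (0.83 ± 0.07) rose while Slc39a4 fell (-0.80 ± 0.16). The lung counts turned with TPM as deposited to 9 higher and 4 lower, and with the number of detected genes as a term to 11 and 1. In the liver 3 of 17 were higher and 1 lower, namely Slc39a4 (-1.02 ± 0.17). The heart had 11 of 17 higher and 0 lower, with a median of 0.17 against 0.04, and 0 in either direction with the number of detected genes as a term. The cerebellum had 4 higher and 2 lower of 21, the kidney 0 and 3 of 19, and muscle 0 and 1 of 17.

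Of 12 genes of copper handling, 7 of 12 were lower in the lung and 0 higher, with a median of -0.33 against -0.08, among them Sco2, which brings copper to cytochrome oxidase (-0.70 ± 0.13). There 1 was lower and 5 higher with TPM as deposited, and with the number of detected genes as a term 5 and 3. In the cerebellum Ccs, the copper chaperone of superoxide dismutase, rose by 0.83 ± 0.12, and 2 of 10 members were higher. In the liver 2 of 10 were higher and 2 lower, and Cp, which encodes the copper protein ceruloplasmin, fell (-0.86 ± 0.17). The heart had 5 higher and 3 lower of 11, and 0 in either direction with the number of detected genes as a term, the kidney 1 and 1, and muscle 1 and 0 of 11.

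Of 15 glucocorticoid response genes tested in the liver 0 passed in either direction, with a median of 0.04 against -0.01 over all genes. Of 17 acute phase and IL6-STAT3 genes 0 were higher and 4 lower, with a median of -0.31, among them Itih4 (-1.04 ± 0.19) and the fibrinogen chains Fgg (-0.60 ± 0.21) and Fgb (-0.59 ± 0.20). Of 10 genes of the NRF2 and heme oxygenase list 0 were higher and 1 lower. In the liver 6 acute phase and 3 NRF2 genes were lower with TPM as deposited. In the kidney 5 of 10 acute phase genes were higher and 0 lower, 0 of 14 glucocorticoid genes were higher and 1 lower, and 1 of 10 NRF2 genes was higher, and with TPM as deposited 1 acute phase gene and 0 NRF2 genes were.

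The NRF2 list holds genes of antioxidant defence. In the lung 10 of its 11 genes were lower and 1 higher in the scaled values, with a median of -0.45 against -0.08 over all genes and 41.5% of all genes lower, and Nqo1 (-0.86 ± 0.11) and Gsta4 (-0.81 ± 0.12) also passed 1.5-fold. Of these genes 4 were lower and 1 higher with TPM as deposited, with a median of -0.15 against 0.21, and with the number of detected genes as a term 1 was lower and 2 higher. The 8 lung markers, all lower in the scaled values, had 6 lower with TPM as deposited and 0 lower and 3 higher with that term, and their part in these counts was not tested. Of 15 glucocorticoid genes 2 were higher, among them Hif3a (1.15 ± 0.21), and 5 lower, and of 11 acute phase genes 5 were lower, among them the haptoglobin gene Hp (-0.78 ± 0.16). On the deposited TPM 9 glucocorticoid genes were higher and 0 lower in the lung, and 3 acute phase genes higher and 1 lower. In the heart 6 of 10 NRF2, 8 of 15 glucocorticoid and 4 of 13 acute phase genes were higher and 0 lower, with Hp at 0.88 ± 0.37 and the cytokine receptor subunit Il6st at 0.64 ± 0.09. With the number of detected genes as a term the heart counts fell to 0, 1 and 0, where the mean number of genes above 0 TPM was 25124 in normoxia and 21447 after IH. That number did not overlap between treatments, so this fall cannot be told apart from removal of the treatment difference itself. In muscle the counts were 1 of 10, 1 of 14 and 0 of 9 higher and 0 lower, and in the cerebellum 0 of 15 glucocorticoid and 0 of 9 acute phase genes passed in either direction, with 1 of 10 NRF2 genes higher and 1 lower.

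The genes next to the cluster did not pass the test in the liver. Of Ogfod1 and Bbs2 before it and Nup93 after it, 0 passed there, with changes from -0.18 to 0.07, although Nup93 was lower there with TPM as deposited and with the number of detected genes as a term (-0.28 and -0.21, limma adjusted p = 0.0363 and 0.0367). In the lung Nup93 had -0.32 (adjusted p = 1.82e-10) and -0.03 with TPM as deposited (adjusted p = 0.562), where Ogfod1 and Bbs2 were higher (0.39 and 0.42, adjusted p = 7.57e-07 and 1.45e-05). In the heart Ogfod1 had 0.25 and Bbs2 -0.19 (adjusted p = 0.00121 and 0.00977), and neither passed with the number of detected genes as a term. Rpl10-ps5, the other gene after the cluster, was below the level tested.

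The genes most like Mt1 and Mt2 were found by Pearson's r with the mean log2 level of both, as a description. Across 96 means of tissue, treatment and time they were Pcp4 (r = 0.942), Pnmal2, H2bu2, Lin7b and Nap1l5, among 14379 genes of which 4475 had an r above 0.5. Within the lung, after subtracting time and treatment means over 48 libraries, they were Gpx2 (0.899), Gstp1, Cbr3, Mgst1 and Tmem205, of which Gpx2, Gstp1 and Mgst1 encode glutathione enzymes, with 1472 of 11696 genes above 0.5. In the liver they were Slc20a1 (0.605), Pla2g12a, Trpm7, Kat5 and Cyp17a1, with 89 of 7195 genes above 0.5. In muscle they were Rgcc (0.771), Angptl8, Mid1ip1, Slc25a51 and Sh2b2, and in the kidney Fxyd2 (0.757), Snrpc, Tmem179b, Fh1 and Mgst3. In the heart they were 1110008P14Rik (0.611), Nop10, Ddt, Polr2j and Sec61g, with 28 of 8126 genes above 0.5, and in the cerebellum Elob (0.887), Psma4, Atp6v1d, Naca and Copb1, with 3062 of 10383.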

How the data were processed

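The members and the gene lists were chosen with earlier results of these data known. Per the labels, poly(A) RNA was made into strand-specific libraries and reads were quantified against the mouse transcriptome (the submitters' notes name mm10, FastQC 0.11.3, kallisto and DESeq2). The authors ran kallisto on Ensembl release 102, and what they deposited is TPM per gene. Counts were not analysed here, so library depth is unknown here, and the DESeq2 test used in the study was replaced by limma. P-values measure the spread between libraries.

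Each library's TPM was divided by a size factor (median of ratios), 0.5 was added as pseudocount and log2 taken. Genes entered a tissue's test from a mean of 1 TPM, and fold changes are on this scale and understate the change of low genes. limma 3.58.1 in R 4.3.3 fitted treatment (24-hour mean), treatment by time, and treatment by tissue for each of 15 pairs, 2-sided, with Benjamini-Hochberg adjustment over all genes tested, and call thresholds of 0.05 and 1.5-fold. The order of tissues was tested on TPM as deposited. Rhythm was tested on TPM as deposited where the highest library reached 1 TPM, by a re-implemented JTK rank test and a cosine fit at 24 h, the smaller p multiplied by 2, and differences of rhythm by cosine fits where a gene was rhythmic in either treatment, counting an acrophase from 4 h. Ratios were compared by 100000 2-sided permutations within time points. Python 3.11.15, numpy 2.4.6, pandas 2.3.3, scipy 1.17.1 and matplotlib 3.10.9 were used, and the methods were tested on simulated data.

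Genes named are the members, Mt3, Mt4, Mtf1, Slc30a1, up to 3 members per list and tissue past both thresholds, the 2 nearest genes on each side and the 5 most alike. The glucocorticoid list has 16 genes, the acute phase list 17, the NRF2 list 11, the zinc list 24 and the copper list 12. Genes and sequences come from GENCODE mouse release 21 and RefSeq, GRCm38. Alternatives were other scaling, pseudocounts and filters, terms for time point and for genes detected, a replicate block, other rhythm tests, and leaving out replicate numbers or libraries. Leaving out the liver library of highest Mt1 or the libraries of fewest lung markers, taking single replicate numbers alone, and counting the gene lists with TPM as deposited or with a term for genes detected, were chosen after seeing the data. So was leaving out the liver and cerebellum libraries of few markers in the tests by time point, by tissue pair and of the ratio.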

Additional observations from a re-analysis of the deposited data

Results flagged for a closer look

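Between some tissues the change after IH differed by a test of the difference itself (limma, interaction of treatment with tissue, log2 ± SE). For Mt1 the change in the lung was below that in the heart by 0.51 ± 0.18 (adjusted p = 0.0104), in the kidney by 0.84 ± 0.16 (adjusted p = 3.27e-06) and in the liver by 1.54 ± 0.40 (adjusted p = 0.00069). Lung minus muscle was -0.64 ± 0.16 (adjusted p = 0.000537), and cerebellum minus liver was -1.13 ± 0.41 (adjusted p = 0.0365). For Mt2 the change in the lung was below that in the cerebellum by 0.89 ± 0.27 (adjusted p = 0.00409), in the heart by 0.99 ± 0.23 (adjusted p = 8.01e-05), in the kidney by 1.02 ± 0.21 (adjusted p = 1.07e-05) and in the liver by 2.08 ± 0.49 (adjusted p = 0.000183). Lung minus muscle was -0.97 ± 0.20 (adjusted p = 2.47e-05). Not all of these calls held. With TPM as deposited, cerebellum minus liver was -1.01 (adjusted p = 0.0756) for Mt1, and the lung was below the heart by 0.27 (adjusted p = 0.0999) for Mt1 and below the cerebellum by 0.50 (adjusted p = 0.137) for Mt2. The other 7 passed there, with smaller differences to the kidney (0.43 and 0.62), to the liver (0.99 and 1.54) and to muscle (-0.39 and -0.72) for Mt1 and Mt2. Without replicate number 2 the same 3 missed the threshold, at -1.12, 0.30 and 0.79 (adjusted p = 0.371, 0.259 and 0.088), as did cerebellum minus liver without number 1 (-0.99, adjusted p = 0.296). These tests share the lung libraries, and 60% of all tests of the lung against another tissue passed over all genes. Without the liver and cerebellum libraries of few markers, 5 pairs passed for each gene.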

How the results depend on the processing

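Of 300 values computed under alternatives, 225 were classed as the same as the main result. For a change or difference, this class meant the same direction and side of the threshold. The 300 include counts of passed tests, which have no direction and were classed by closeness to the main count. The 225 are therefore not all tests that kept their call. For the values given here the cause was not tested unless named. With TPM as deposited, Mt1 in the lung was -0.17 (adjusted p = 0.135), in the kidney 0.26 (0.081) and in the heart 0.10, and Mt2 was 1.16 in the liver (0.0617) and 0.39 in the heart (0.0415). The term for genes detected gave -0.013 and -0.16 in the lung and 0.37 for Mt1 in the heart, though the number itself differed with treatment in both tissues. Without a filter on low genes, which tests more genes, kidney Mt1 was 0.30 (0.0512) and liver Mt2 1.29 (0.082), and with a minimum of 5 TPM liver Mt1 was 0.95 (0.0489). A time term gave 0.95 for liver Mt1 (0.0109) and 0.29 for kidney Mt2 (0.0134).

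The replicate numbers were not taken as pairs in the main tests. Between 5 (lung) and 16 (liver) of 24 same-numbered pairs per tissue had a correlation of deviations over 0.1. The median correlation ran from -0.14 in the lung to 0.22 in the liver, so a shared effect of the number is not excluded. With the replicate block liver Mt1 was 0.95 (0.00664), kidney Mt2 0.29 (0.0391) and the cerebellum ratio -0.32 (0.0876), 2 time points passed for Mt2 and 8 tissue pairs for Mt2. Number 3 alone gave 0.24 and -0.015 in the cerebellum, 0.044 for heart Mt1, -0.024 for muscle Mt1 and -0.028 and -0.13 in the kidney. Number 2 alone gave 0.16 for heart Mt1 and 0.44 for kidney Mt1, and number 1 alone 0.48 for kidney Mt1, while liver Mt2 was 1.33, 1.23 and 1.28 for numbers 1, 2 and 3 and missed the threshold each time. These used 8 libraries a group.

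Leaving out a replicate number in turn gave changes for Mt1 and Mt2 of -0.40 to 0.0093 and 0.045 to 0.21 in the cerebellum, -0.11 to 0.094 and 0.13 to 0.35 in the heart, 0.21 to 0.46 and 0.15 to 0.50 in the kidney, 0.87 to 1.00 and 1.26 to 1.32 in the liver, -0.55 to -0.35 and -0.75 to -0.56 in the lung and 0.062 to 0.19 and 0.21 to 0.29 in muscle. It gave 0 to 3 time points for each gene, 3 to 8 tissue pairs for Mt1 and 4 to 5 for Mt2, 0 rhythmic sets, and a kidney Mt1 MESOR difference of 17.4 to 41.9 TPM. The ratio differences were -0.61 to -0.035 in the cerebellum, -0.45 to -0.30 in the liver, -0.041 to 0.056 in the kidney and -0.23 to -0.078 in muscle, where -0.23 passed (0.0495). With medians the ratio difference was -0.038 in the kidney and -0.41 in the liver (0.146).

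For Mt1, 1 time point and 3 tissue pairs passed with TPM as deposited, 8 pairs with a term for time point by tissue, and 0 time points without the libraries of fewest cerebellar and lung markers. For Mt2, 0 time points passed with TPM as deposited and 9 pairs without the highest liver library, where the Mt1 change in the liver was 1.10. That library was left out for its level of the genes tested. Rhythmic sets of 12 numbered 3 for Mt1 and 2 for Mt2 by the JTK test alone, 7 and 5 by Fisher's combination, and 2 and 2 on the log2 scale, and for Mt1 2 with scaled TPM and 2 with a minimum of 5 TPM. The number of libraries and the missing depth limit all values.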

Other observations

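Mt4 was listed above 0 TPM in few libraries and reached more than 2 TPM in the lung alone, with 52.7 TPM in normoxia at 7:30, replicate 1, and with 22.1 and 29.3 TPM after IH at 10:30, replicates 2 and 3. Mt3 was highest outside the cerebellum in the heart library after IH at 10:30, replicate 2, with 81.5 TPM against 23.7 TPM in the next, and in the muscle library after IH at 1:30, replicate 3, with 43.8 TPM against 19.3 TPM in the next. In that muscle library Mt2 was at 96.4 TPM, the highest of the tissue, and Mt1 at 123 TPM, so that its ratio was the lowest of the muscle libraries. In the liver library after IH with few liver markers Mt3 was at 3.32 TPM, against at most 0.265 TPM in the other liver libraries.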
